A study of Mus musculus with 14 samples.

Results

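Integrins and the other adhesion receptors of leukocytes were examined in mouse bone marrow cells sorted as Sca1+/cKit-, positive for the antigen Sca1 and negative for the stem cell factor receptor. The set was a list of 34 genes by symbol, and all 34 had a probe on the array among 22180 genes with a probe of their own. It holds 24 integrin subunits and 10 other adhesion molecules. Of the 34 genes, 27 were bright enough to test, among 13805 tested genes in all.

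The cells were sorted by flow cytometry from female mice of the NCR-NU strain, nude mice that lack a thymus and so have few mature T cells. Hosts were young or old, and cancer-free, carrying a Matrigel plug (a basement membrane gel) without tumour, or bearing a primary tumour of matched size. The groups were young cancer-free (n = 3), young tumor-bearing (n = 3), old cancer-free (n = 5) and old tumor-bearing (n = 3), with 1 array per biological replicate, 14 in all. The labels give neither the ages in units of time nor the tumour's cell of origin. Values are log2 microarray signals, so a difference of 1 is a doubling, and levels of different genes cannot be compared. All arrays expressed Ptprc, the CD45 antigen of blood cells, at 10.53 to 11.36. Kit transcript was measured at 5.25 to 7.03, and the Sca1 gene itself, Ly6a, was not analysed here. T cell markers were at a list mean of 6.40 to 8.41, although the hosts were nude mice. A gene was tested if it exceeded the median of the whole table (3.88) on at least 3 arrays. Array medians lay between 3.81 and 3.88 on young and between 3.87 and 3.93 on old arrays, so they differed slightly with age. Precision is limited by how many arrays there were. The mean correlation of an array with the others was lowest for young tumor-bearing replicate 1 (0.899) and old tumor-bearing replicate 3 (0.907).

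Integrins are receptors of 1 alpha and 1 beta chain that bind matrix proteins or counter-receptors on other cells, and signals inside the cell switch them between resting and active shapes. On leukocytes the chains that pair with Itgb2 carry firm adhesion to vessel walls and uptake of coated particles, while Itga4 with Itgb1 or Itgb7 anchors cells in marrow and gut. Selectins start rolling on the vessel wall. Icam1, Icam2 and Vcam1 are the ligands of the leukocyte integrins, and Pecam1 and the junctional adhesion molecules act at cell contacts.

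Itgam and Itgax encode the alpha chains of CD11b and CD11c, which both pair with Itgb2. Itgax is the next protein-coding gene after Itgam on mouse chromosome 7 in the RefSeq annotation, and Itgad, a further Itgb2 partner, is the next after Itgax. The 250 bases upstream of the start of Itgam and of Itgax are shown, because Itgam passed the test for age and Itgax had the third smallest p of the set. They come from RefSeq on GRCm38.p6, plus strand, at chr7:128062390-128062639 for Itgam and chr7:128129300-128129549 for Itgax. Capitals mark GAGGAA, a core bound by the myeloid factor PU.1, or its reverse complement TTCCTC, searched on both strands without overlap with another motif.
Itgam: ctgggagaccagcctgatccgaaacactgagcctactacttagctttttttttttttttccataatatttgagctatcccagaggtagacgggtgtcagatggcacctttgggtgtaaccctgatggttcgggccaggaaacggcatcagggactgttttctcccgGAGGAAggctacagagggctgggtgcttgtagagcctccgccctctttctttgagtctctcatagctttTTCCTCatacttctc
Itgax: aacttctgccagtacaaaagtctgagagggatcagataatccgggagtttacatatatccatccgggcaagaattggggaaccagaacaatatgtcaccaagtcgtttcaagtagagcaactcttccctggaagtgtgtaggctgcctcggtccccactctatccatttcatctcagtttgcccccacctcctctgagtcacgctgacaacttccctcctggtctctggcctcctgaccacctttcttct
The Itgam window held 2 matches, beginning 84 and 15 bases upstream of the start, and the Itgax window held 0. Of the 34 genes, 20 had an entry with 22 starts, of which 9 starts (40.9%) held the motif, against 23.3% of 32851 starts of all genes. A match describes letters in this window and not a bound site.

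The first question was how adhesion genes differed with the age of the host. With the age differences of both tumour states averaged, 2 of the 27 tested genes passed the test, and both were lower in old mice: Itgam, the myeloid integrin chain, and Pecam1, an adhesion molecule of leukocytes, platelets and endothelium. Over all tested genes, 0.0869% passed (12 genes in limma, adjusted p under 0.05), and 0.0724% passed as lower. In bulk samples, fewer cells of a type and less RNA per cell cannot be told apart.

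Itgam was measured at 5.99, 5.75 and 5.71 in young cancer-free mice and at 5.57, 4.81 and 5.59 in young tumor-bearing mice. In old cancer-free mice it was at 5.20, 4.72, 4.77, 4.62 and 4.69, and in old tumor-bearing mice at 4.31, 4.56 and 4.41. Old arrays lay below young arrays within each tumour status, but young tumor-bearing replicate 2 (4.81) lay below old cancer-free replicate 1 (5.20). The average age difference was -0.96 ± 0.15 (SE; 1.94-fold lower in old mice; adjusted p = 0.0387 in limma). It was -1.02 ± 0.20 without and -0.90 ± 0.23 with tumour, neither of which passed alone (adjusted p = 0.393 and adjusted p = 0.197 in limma). The average difference ranged from -1.09 to -0.89 when single arrays were left out, with adjusted p from 0.0250 to 0.125. The call was kept without old cancer-free replicate 1, old tumor-bearing replicate 3 or young tumor-bearing replicate 2, and lost without any of the other 11 arrays. It was also lost without both of the 2 least correlated arrays (adjusted p = 0.0512 in limma). With the replicate number added to the model as a block, the Itgam call was lost too (adjusted p = 0.0866 in limma).

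Pecam1 was measured at 6.43, 6.25 and 6.52 in young cancer-free and at 6.19, 6.77 and 6.57 in young tumor-bearing mice. It was at 5.54, 5.19, 5.98, 5.35 and 5.79 in old cancer-free and at 5.73, 5.39 and 5.37 in old tumor-bearing mice. Every old array lay below every young array, which held for 0.398% of all tested genes in the lower direction and for no other tested adhesion gene. The average age difference was -0.92 ± 0.15 (1.89-fold lower; adjusted p = 0.0429 in limma), with -0.83 ± 0.20 without and -1.01 ± 0.23 with tumour. Its difference ranged from -1.0 to -0.86 when single arrays were left out, with adjusted p from 0.0338 to 0.156. The call was kept without old cancer-free replicate 3 or old tumor-bearing replicate 3 and lost without any of the other 12 arrays. It was also lost with cyclic loess normalisation (adjusted p = 0.0630 in limma) and with a variance trend (adjusted p = 0.0522 in limma). The replicate block ended the Pecam1 call as well (adjusted p = 0.0963 in limma).

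**Figure D1:**
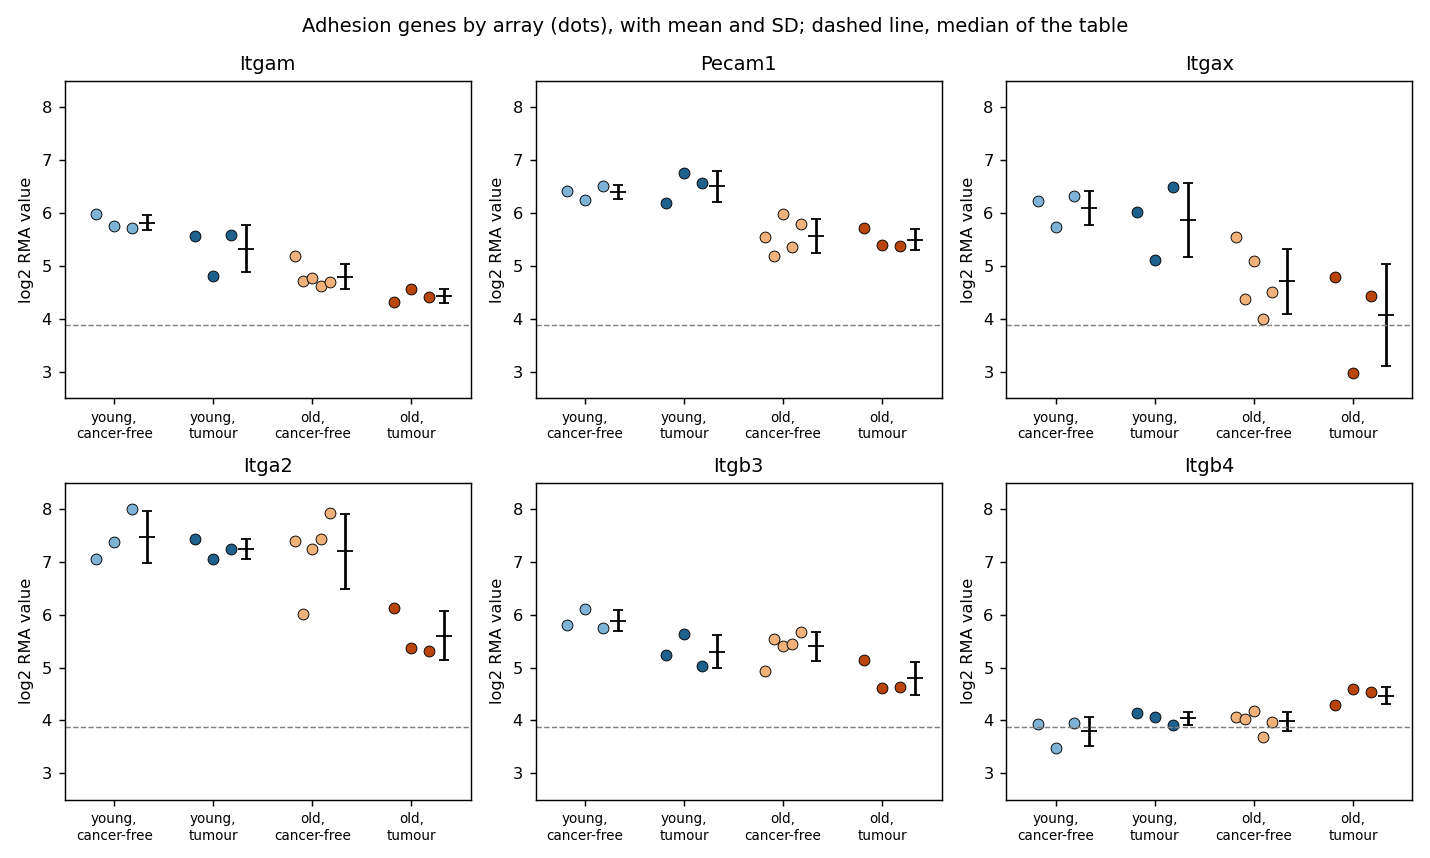
Log2 RMA values of 6 adhesion genes on each array (dots), by group on the x axis, with the group mean and SD as a black bar and the table median of 3.88 as a dashed line. Old arrays of Pecam1 all sit at or below 5.98 and young arrays at or above 6.19, whereas Itga2 is low in the old tumor-bearing group, at 5.32 to 6.14.

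Itgax, the CD11c chain of dendritic cells and some macrophages, had a larger difference than these but more spread, and did not pass. It was at 6.23, 5.74 and 6.33 in young cancer-free and at 6.02, 5.12 and 6.49 in young tumor-bearing mice. In old cancer-free mice it was at 5.55, 4.38, 5.09, 4.0 and 4.5, and in old tumor-bearing mice at 4.80, 2.97 and 4.43. Old and young arrays did not overlap within either tumour status, and 1 old array (2.97) lay under the table median, so the size is not exact. The average age difference was -1.60 ± 0.33 (adjusted p = 0.0768 in limma). It was -1.39 ± 0.44 without and -1.81 ± 0.49 with tumour.

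The other Itgb2 family genes had smaller differences. Itgb2, the shared beta chain, differed by -0.51 ± 0.19 on average, and Itgal, the chain of LFA-1 on lymphocytes, by -0.34 ± 0.16 (adjusted p = 0.268 and adjusted p = 0.391 in limma). Itgb2 was between 8.70 and 9.35 in old cancer-free mice and at 9.28, 9.55 and 9.40 in young cancer-free mice, so these groups overlapped. Itgad, the CD11d chain, stayed between 3.35 and 4.29 around the table median. All 5 genes of this family had a negative average age difference, that of Itgad (-0.012 ± 0.15) turning positive with array weights (0.016) and without some single arrays, with a median of -0.51 against -0.014 over all tested genes.

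Among the remaining integrins, Itgb7, Itgb3, Itga2 and Itgb4 had an unadjusted p under 0.05 for age on average and did not pass after adjustment. Itgb7, which pairs with Itga4 or Itgae on lymphocytes, differed by -0.49 ± 0.17 (adjusted p = 0.235 in limma). Itgb3, the beta chain of the vitronectin and fibrinogen receptors, differed by -0.49 ± 0.16 (adjusted p = 0.208 in limma). Itgb4, which pairs with Itga6 as a laminin receptor, had the opposite sign, at 0.31 ± 0.13 (adjusted p = 0.312 in limma). In all, 7 tested members had a negative and 1 a positive age difference at unadjusted p under 0.05. Over all tested genes the shares were 8.97% in the negative and 4.44% in the positive direction, so 7 of 27 (25.9%) was above and 1 of 27 (3.70%) near the background share.

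Most tested members had a negative average age difference: 20 of 27, with a median of -0.22, where 52% of all tested genes were negative, and 7 were positive, against 48%. The age comparisons with and without tumour share no array, and 14 of the 27 genes were lower in old mice in both, against 32.3% of all tested genes. These were Itgal, Itgam, Itgax, Itgb2, Itgb7, Itgb1, Itga1, Itga2, Itga6, Itga5, Itgav, Itgb3, Itgb5 and Pecam1, 13 of them integrin chains. The 6 genes that were higher in old mice in both were Itgb4, Itga3, Itga7, Itga9, Itga2b and Icam2, against 27.3% of all tested genes. Itgb4, Itga3, Itga9 and Itga2b stayed between 3.41 and 4.59 on all arrays, around the table median of 3.88, so their sizes are not exact. A list counted by sign was not tested, and 8 of these 20 genes had an unadjusted p under 0.05 on average.

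**Figure D2:**
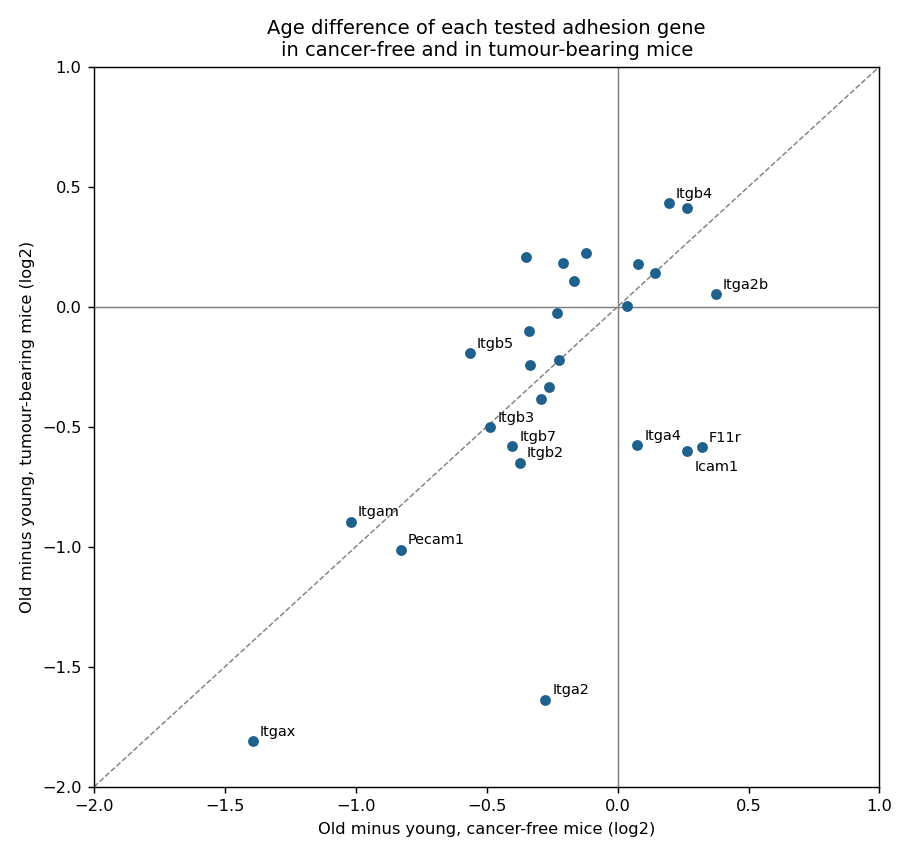
Each dot is 1 of the 27 tested adhesion genes, with its old minus young log2 difference without tumour on the x axis and with tumour on the y axis; the dashed diagonal marks equal differences. Itgam, Pecam1 and Itgax lie near the diagonal at low values, while Itga2 is at -0.28 without and -1.64 with tumour.

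Within cancer-free mice alone, 0 adhesion genes passed in limma, as did 0% of all tested genes. At unadjusted p under 0.05 there were 6 (22.2%, against 7.66% of all tested genes): Itgam, Pecam1, Itgax, Itgb3 and Itgb5 with a negative and Itga2b with a positive difference. That is 5 negative, against 5.17% of all tested genes, and 1 positive, against 2.48%. By sign alone 18 members were negative, against 55.5%, and 9 positive, against 44.5%. Itgb3 was at 5.80, 6.11 and 5.76 in young cancer-free and at 4.94, 5.54, 5.41, 5.45 and 5.67 in old cancer-free mice, with no overlap (-0.49 ± 0.21, adjusted p = 0.637 in limma). Itga2b, the platelet integrin chain, was at 3.98, 3.55 and 4.01 in young and 4.37, 4.17, 4.24, 4.20 and 4.14 in old cancer-free mice, near the table median. Itgb5, a vitronectin receptor chain, differed by -0.56 ± 0.25 with overlap. Its old cancer-free arrays lay between 3.40 and 4.48, some of them under the table median, so this size is not exact. Arrays did not overlap in the lower direction for 4 members (Itgam, Itgax, Itgb3 and Pecam1), against 4.4% of all tested genes, and in the higher direction for 1 (Itga2b), against 2.9%.

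Within tumour-bearing mice, 0 adhesion genes passed in limma either, as did 0% of all tested genes, and 7 had an unadjusted p under 0.05 (25.9%, against 10.1% of all tested genes). Itga2 had a large difference here. It is the alpha chain of the collagen receptor, known in mice as CD49b, a marker of natural killer cells. Itga2 was at 7.44, 7.06 and 7.24 in young tumor-bearing and at 6.14, 5.37 and 5.32 in old tumor-bearing mice. The difference was -1.64 ± 0.40 (3.11-fold, adjusted p = 0.188 in limma), with no overlap. In cancer-free mice the same comparison gave -0.28 ± 0.36, with 7.05, 7.37 and 8.01 in young and 7.40, 6.01, 7.24, 7.43 and 7.93 in old mice. The test of whether age differences depended on tumour status gave -1.36 ± 0.54 for Itga2 (95% interval -2.52 to -0.20, adjusted p = 0.976 in limma) and passed for 0 members, with 1 (Itga2) at unadjusted p under 0.05 (3.70%, against 4.42% of all tested genes). In that test 1 member was negative at this p, against 1.85%, and 0 positive, against 2.57%. By sign alone 15 members were negative, against 47.6%, and 12 positive, against 52.4%.

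Besides Itga2, Itgam, Itgax and Pecam1, the members at unadjusted p under 0.05 in tumour-bearing mice were Itgb2 (-0.65 ± 0.28), Itgb7 (-0.58 ± 0.25) and Itgb4 (0.43 ± 0.19). Of the 7, 6 were negative, against 6.35% of all tested genes, and 1 positive, against 3.75%. By sign alone 17 members were negative, against 49.5%, and 10 positive, against 50.5%. Itgb7 was at 6.96, 7.25 and 7.13 in young and at 6.82, 6.07 and 6.69 in old mice, without overlap. Itgb4 was at 4.14, 4.07 and 3.91 in young and at 4.29, 4.59 and 4.53 in old tumor-bearing mice, all old arrays being higher. In the lower direction 7 members did not overlap (Itgam, Itgax, Itgb7, Itga2, Itga5, Icam1 and Pecam1; 25.9%, against 7.1% of all tested genes), and in the higher direction 1 (Itgb4), against 5.94%. Icam1, the endothelial and leukocyte ligand of LFA-1, was at 6.12, 6.99 and 6.10 in young and 6.09, 6.08 and 5.23 in old tumor-bearing mice. Its difference was -0.60 ± 0.31, and the gap between 6.09 and 6.10 was under the spread within either group.

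The second question was how adhesion genes differed with a tumour in the host. In limma 0 of 27 passed in young mice, in old mice or on average, as did 0% of all tested genes in each. Itgb3 had the smallest p of the set on average over ages, with an average tumour difference of -0.60 ± 0.16 (1.51-fold lower, adjusted p = 0.317 in limma), while the largest average difference was that of Itga2 (-0.91 ± 0.27). For Itgb3 the tumour difference was -0.59 ± 0.23 in young and -0.61 ± 0.21 in old mice.

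Itgb3 was at 5.80, 6.11 and 5.76 in young cancer-free against 5.24, 5.64 and 5.02 in young tumor-bearing mice, without overlap. In old mice it was at 4.94, 5.54, 5.41, 5.45 and 5.67 without tumour against 5.15, 4.61 and 4.63 with tumour, and old cancer-free replicate 1 (4.94) lay within the tumour range. Its partner Itgav had an average difference of -0.29 ± 0.22. The platelet partner Itga2b was at 3.55 to 4.37 on all arrays.

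In young mice 2 members had an unadjusted p under 0.05 for tumour (Itgb3 and Itgam; 7.41%, against 5.4% of all tested genes), a share near the background. Both were negative, against 3.3% of all tested genes, and 0 were positive, against 2.1%. By sign alone 17 members were negative, against 52.8%, and 10 positive, against 47.2%. Itgam differed by -0.50 ± 0.23, with all young tumor-bearing arrays (5.57, 4.81 and 5.59) below the young cancer-free ones (5.99, 5.75 and 5.71). Itgb1, the beta chain of most matrix integrins, was at 8.46, 8.91 and 8.76 without and at 8.10, 8.41 and 8.33 with tumour (-0.43 ± 0.23, adjusted p = 0.887 in limma). Itga7, a laminin receptor chain, was at 4.39, 4.65 and 4.47 without and at 4.86, 4.89 and 4.72 with tumour (0.32 ± 0.18). Neither group pair overlapped for these genes. Without overlap, 3 members were lower (Itgam, Itgb1 and Itgb3; 11.1%, against 7.37% of all tested genes) and 2 were higher (Icam1 and Itga7; 7.41%, against 5.56%).

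In old mice 3 members had an unadjusted p under 0.05 for tumour (Itga2, Itgb3 and Itgb4; 11.1%, against 9.76% of all tested genes), again near the background share. Of these 2 were negative, against 5.56% of all tested genes, and 1 positive, against 4.2%. By sign alone 17 members were negative, against 48.7%, and 10 positive, against 51.3%. Itga2 differed by -1.59 ± 0.36 (3.02-fold, adjusted p = 0.220 in limma). Its old tumor-bearing arrays overlapped the cancer-free ones only through old cancer-free replicate 2 (6.01), which lay below old tumor-bearing replicate 1 (6.14). Itgb4 was at 4.06, 4.03, 4.17, 3.69 and 3.97 without and at 4.29, 4.59 and 4.53 with tumour (0.48 ± 0.17, adjusted p = 0.423 in limma), without overlap, as for 3.11% of all tested genes in the higher direction. The old cancer-free arrays of Itgb4 lay at or near the table median, so this size is not exact. Itga4, the VLA-4 alpha chain, was at 8.01, 8.17, 8.25, 9.15 and 8.73 without and at 8.06, 8.14 and 7.44 with tumour, overlapping (-0.58 ± 0.28, adjusted p = 0.528 in limma). Itgam was without overlap here too (-0.37 ± 0.20, adjusted p = 0.575 in limma), a pattern in the lower direction shared by 3.04% of all tested genes.

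On average over ages, 6 members had an unadjusted p under 0.05 for tumour (22.2%, against 10.2% of all tested genes). Itgb3, Itga2, Itgam and Itgb1 were negative, at -0.60 ± 0.16, -0.91 ± 0.27, -0.43 ± 0.15 and -0.43 ± 0.16. Itgb4 and Itga7 were positive, at 0.36 ± 0.13 and 0.31 ± 0.12. The shares of all tested genes were 6.01% negative and 4.23% positive at this p. By sign alone 17 members were negative, against 51.1%, and 10 positive, against 48.9%. The tumour comparisons in young and in old mice share no array, and 12 of 27 members were lower with tumour in both, against 29.6% of all tested genes. The 5 that were higher in both were Itgal, Itga3, Itga7, Itga9 and Itgb4, against 28.2%. Pecam1, lower with age, had an average tumour difference of 0.019 ± 0.15 (95% interval -0.31 to 0.35).

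**Figure D3:**
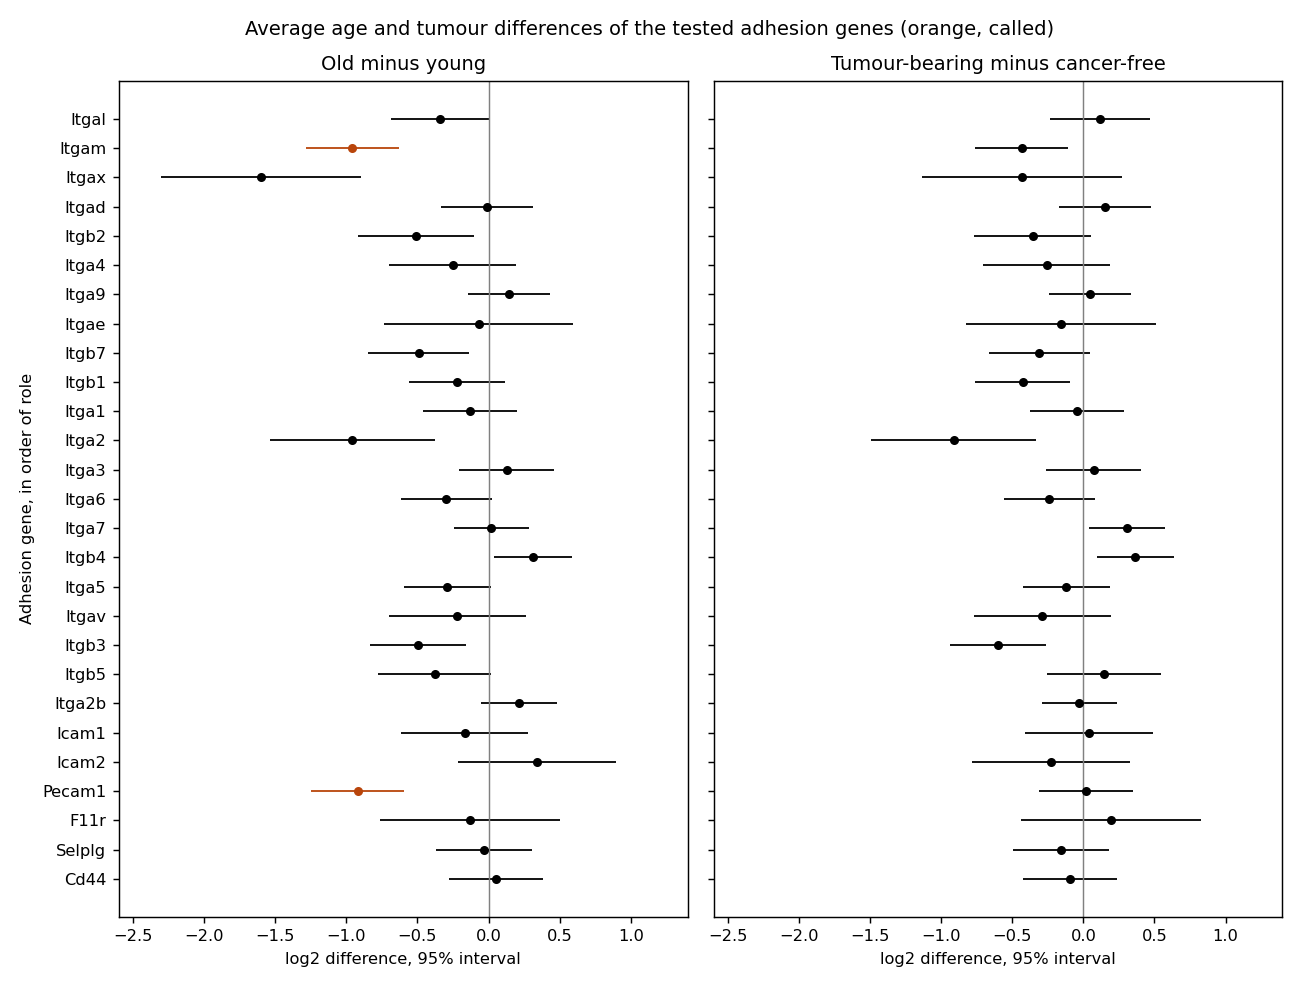
Log2 differences with 95% intervals of the 27 tested adhesion genes, averaged for age (old minus young, left) and for tumour (tumour-bearing minus cancer-free, right). Itgam and Pecam1 (orange) passed the test for age, and 0 genes passed for tumour.

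The ligands, junction molecules and selectin system gave few differences beyond Pecam1. Icam1 and Icam2 had average age differences of -0.17 ± 0.21 and 0.34 ± 0.26, and F11r, a junctional adhesion molecule, had -0.13 ± 0.30. For Icam1 the tumour difference was 0.47 ± 0.31 in young and -0.40 ± 0.28 in old mice, and the test of that change gave -0.87 ± 0.42 (adjusted p = 0.976 in limma). Selplg, the P-selectin ligand, stayed between 9.94 and 10.83, and Cd44, the hyaluronan receptor, between 6.26 and 7.08. Their average age differences were -0.029 ± 0.16 and 0.052 ± 0.16.

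Of the 34 genes 7 were not tested: the matrix integrin chains Itga8, Itgb6 and Itgb8, the ligand Vcam1, the junction genes Jam2 and Esam, and the platelet and endothelial selectin Selp. Of these, 5 had no array above the table median. Jam2 exceeded it clearly on old tumor-bearing replicate 1 (5.05) and young tumor-bearing replicate 3 (5.13) and lay between 2.99 and 3.81 on the others. Every tested member had at least 1 array above the median in each of the 4 groups, and 18 exceeded it on all arrays. Still, 4 tested members (Itgad, Itga9, Itgb4 and Itga2b) had a mean under the median in at least 1 group. Itgav and Selplg had 2 probes each. The dimmer Itgav probe (mean 3.22) gave an average age difference of 0.16, against -0.22 for the brighter, and the Selplg probes gave -0.072 and -0.029.

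**Figure D4:**
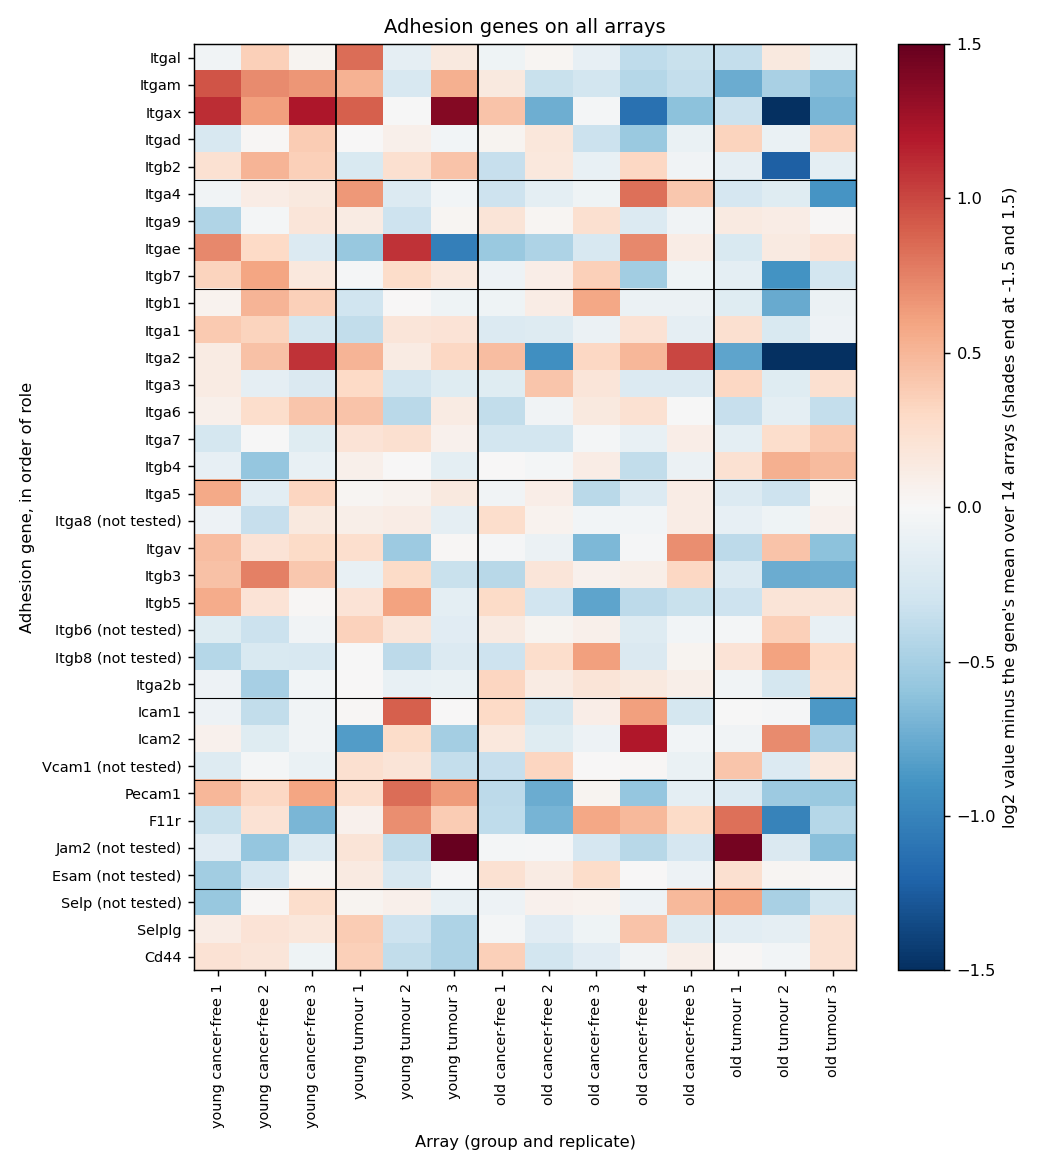
Each row is 1 of the 34 adhesion genes in order of role, each column 1 array, and colour gives the log2 value minus the gene's own mean over the 14 arrays (red higher, blue lower; shades end at -1.5 and 1.5). Itgam, Itgax and Pecam1 are mostly red in the 6 young columns and blue in the old, and Itga2 is blue in the 3 old tumor-bearing columns, darkest in replicates 2 and 3.

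Genes that act with integrins inside the cell were counted from fixed lists. The list for integrin activation had 15 tested genes (talins, kindlins, Rap1, adaptors and other genes, Flna among them). It was not split by whether a gene promotes or restrains activation, so its counts give no direction of activation. Of these genes 0 passed in any comparison in limma. With age on average 2 were higher and 3 lower at unadjusted p under 0.05, against 4.44% and 8.97% of all tested genes. Flna, a filamin that binds integrin tails, was at -0.46 ± 0.15 and the adaptor Skap2 at -0.66 ± 0.22 (adjusted p = 0.210 and adjusted p = 0.234 in limma). For tumour on average the list had 0 higher and 3 lower at that p, against 4.23% and 6.01%, led by the lymphocyte adaptor Skap1 (-0.58 ± 0.15, adjusted p = 0.317 in limma). Of 15 tested genes of adhesion complexes and their kinases, 12 had a negative average age difference, 6 of them and 0 positive ones at unadjusted p under 0.05, and the median was -0.28. Over all tested genes 52% were negative, and 8.97% negative and 4.44% positive at that p. Actn4, an alpha-actinin, was at -0.42 ± 0.15 and Tns1, a tensin, at -0.84 ± 0.31 (adjusted p = 0.249 and adjusted p = 0.258 in limma). Parvb, a parvin of the kinase complex below integrins, had a tumour difference of 1.72 ± 0.36 in young mice (adjusted p = 0.886 in limma) and 1.10 ± 0.24 on average (adjusted p = 0.268 in limma).

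Markers of several cell types also differed with age. For monocytes and macrophages 11 of 12 markers were measured, and 10 of 11 were lower in old mice on average, 0 passing and 5 at unadjusted p under 0.05 in limma, where 8.97% of all tested genes were lower at that p. The mean of the list ranged from 6.92 to 7.33 in young cancer-free, 7.11 to 7.19 in young tumor-bearing, 6.34 to 7.32 in old cancer-free and 6.37 to 7.12 in old tumor-bearing mice. Adgre1 (F4/80) was under the table median in both old groups. For plasmacytoid dendritic cells, which carry CD11c, 11 of 12 markers were measured and all 11 were lower with age on average, 9 at unadjusted p under 0.05, against the same 8.97%. That list ranged from 6.94 to 8.04, 7.23 to 7.93, 5.64 to 7.21 and 5.91 to 6.56 in the same order of groups. Conventional dendritic cell markers (7 of 8 measured) ranged from 4.57 to 4.83, 4.37 to 5.0, 4.21 to 4.92 and 4.21 to 4.54, and Zbtb46, Xcr1 and Clec10a were under the table median in young cancer-free mice. Neutrophil markers, all 12 measured, ranged from 6.26 to 6.84, 6.19 to 7.34, 5.51 to 7.44 and 5.59 to 6.15. With age on average, 9 of 12 neutrophil markers were lower and 3 higher, 1 lower and 0 higher at unadjusted p under 0.05 in limma. Of 6 tested conventional dendritic cell markers 4 were lower and 2 higher, 1 each way at that p. Over all tested genes 52% were lower by sign, and 8.97% were lower and 4.44% higher at that p. The part of these cells in the differences of Itgam, Itgax and Pecam1 was not tested.

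T cell markers had the opposite sign with age. Of 10 markers 8 were measured, and 6 of 8 were higher and 2 lower in old mice on average, 0 passing and 5 higher at unadjusted p under 0.05 in limma, against 4.44% of all tested genes. The median difference was 0.77 on average, 0.26 in cancer-free mice and 1.28 in tumour-bearing mice. With tumour on average, 6 of the 8 were lower, 3 of them at unadjusted p under 0.05, against 6.01% of all tested genes, and the median was -0.40. The list mean ranged from 7.18 to 7.95 in young cancer-free, 6.40 to 7.45 in young tumor-bearing, 7.19 to 8.41 in old cancer-free and 7.64 to 7.92 in old tumor-bearing mice. The part of T cells in the differences of the adhesion genes was not tested.

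Markers of cycling cells also differed with age. Of 8 markers 7 were measured, and all 7 were lower in old mice on average at unadjusted p under 0.05, against 8.97% of all tested genes. Of the 7, 2 passed in limma (Kif23 and Nuf2, both of cell division), where 0.0724% of all tested genes passed as lower. The list mean ranged from 6.75 to 7.18 in young cancer-free, 6.99 to 7.16 in young tumor-bearing, 5.07 to 6.70 in old cancer-free and 4.81 to 6.02 in old tumor-bearing mice. Old arrays were thus all below young arrays, by a narrow gap (6.70 against 6.75). This holds for a mean of 7 markers, for which no share over all genes was computed. The part of cycling cells in the differences of the adhesion genes was not tested.

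Itga2 is also a natural killer cell antigen, and the markers of that cell type were counted beside it. Of 8 markers 7 were measured, and all 7 had a negative average tumour difference, 3 at unadjusted p under 0.05 and 0 passing in limma, where 6.01% of all tested genes were lower at that p. The median tumour difference of the list was similar at both ages, -0.51 in young and -0.47 in old mice, whereas that of Itga2 was -0.23 ± 0.40 and -1.59 ± 0.36. In young tumor-bearing mice replicate 1 had the lowest list mean (7.56) and the highest Itga2 (7.44). In young cancer-free mice the list means (8.26, 8.47 and 8.59) and Itga2 (7.05, 7.37 and 8.01) rose in the same order. Old cancer-free replicate 2 was lowest in list mean and Itga2 (7.86 and 6.01). Old tumor-bearing replicate 1 was highest in list mean and Itga2 (7.89 and 6.14). Replicates 2 and 3 of that group went opposite ways, at 7.28 and 7.65 in list mean and at 5.37 and 5.32 in Itga2. The list mean was 8.44 (8.26 to 8.59) in young cancer-free, 8.0 (7.56 to 8.24) in young tumor-bearing, 8.13 (7.86 to 8.28) in old cancer-free and 7.61 (7.28 to 7.89) in old tumor-bearing mice. The list range in old tumor-bearing mice overlapped that of old cancer-free and that of young tumor-bearing mice. The Itga2 range in old tumor-bearing mice overlapped that of old cancer-free but not that of young tumor-bearing mice. The part of natural killer cells in the differences of Itga2 and the other adhesion genes was not tested.

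Endothelial and megakaryocyte markers, of cells that carry Pecam1, Itgb3 and Selp, were mostly dim. All 9 endothelial markers were measured. Of these 6 had a mean under the table median in young and in old cancer-free mice and 4 in both tumour groups, Tek and Emcn among them. Their list mean ranged from 3.62 to 3.68, 3.6 to 3.78, 3.44 to 3.70 and 3.67 to 3.85. Of 6 measured megakaryocyte and platelet markers (9 listed) 4 had a mean under the median in each group (Pf4, Ppbp, Gp6 and Clec1b), with the list at 3.22 to 3.44, 3.33 to 3.47, 3.17 to 3.35 and 3.53 to 3.68. Neither list, with 6 and 2 genes bright enough to test, gave a gene at unadjusted p under 0.05 for age or tumour on average.

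**Figure D5:**
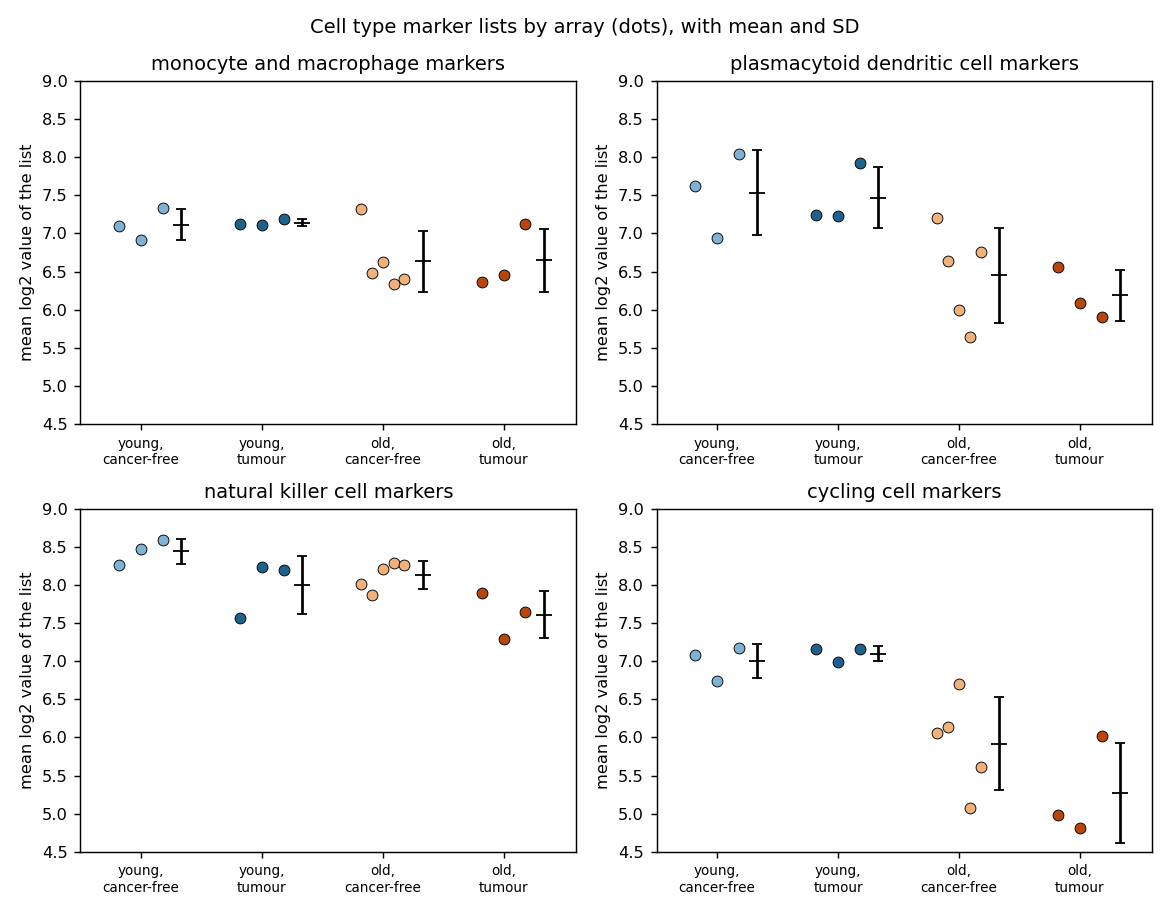
Mean log2 value of 4 marker lists on each array (dots), by group on the x axis, with the group mean and SD as a black bar. Cycling cell markers are at 6.75 or above on every young array and at 6.70 or below on every old array. The group mean of natural killer cell markers is lowest in the old tumor-bearing group (7.61), whose arrays overlap those of young tumor-bearing and old cancer-free mice.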

How the data were processed

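Per the submitters' processing notes, the deposited log2 values were made by the authors by RMA, with oligo 1.32.0 and R 3.2.0. Which arrays were normalised together, and the array build, are not given in the sources used here. Per the labels' protocols 500 pg of total RNA was amplified and labelled with biotin. Of 41345 probes, 23521 had 1 gene symbol, 1814 several and 16010 none. For each gene the probe with the brightest mean was used. A model with 1 mean per group was fitted over 13805 genes with limma 3.58.1 (R 4.3.3), with 7 contrasts, two-sided tests and Benjamini-Hochberg adjustment within each contrast at 0.05. SE and 95% intervals come from that fit.

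In simulated data 200 of 13805 genes were changed, with noise drawn independently for each gene. Recovery depends on how many genes change, so the shares may not hold for the measured data. For age on average the fit recovered 65% of log2 changes of 1 and 97% of changes of 2. For age in tumour-bearing mice it recovered 17.5% and 86%. A change of 1 in the difference by age was recovered in 0%.

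Values per array are given for members that passed and for the 4 members with the smallest p in each pairwise contrast, and further members were named after their values were seen. The members and lists were chosen with earlier results of these data known. Alternatives were the filter, normalisation, variance model, array weights, probe mean, samples fitted, replicate block and leaving out arrays.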

Additional observations from a re-analysis of the deposited data

Results flagged for a closer look

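Within old cancer-free mice, the only group with more than 3 arrays, 5 of 34 adhesion genes had 1 array far from the other 4, where chance gives about 1 in 20. Among tested genes the share was 4 of 27 (14.8%), against 5.86% of all 13805, and replicate 4, which holds 3 of the 5, held 19.8% of the outlying values of all tested genes. Itgam was at 5.20 on replicate 1 and at 4.62 to 4.77 on the others. On replicate 4, Itga1 was at 4.53 (others 4.11 to 4.23), Icam2 at 7.33 (others 5.95 to 6.29) and Selplg at 10.83 (others 10.20 to 10.38). Selp, dim throughout, was at 3.90 on replicate 5 and at 3.35 to 3.49 on the others.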

How the results depend on the processing

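With the filter, normalisation, variance model, weights, probe mean, replicate block and single arrays varied, 0 members passed for any comparison other than age on average. For that comparison, 2 members passed and the count was 1 with cyclic loess, 1 with a variance trend, 0 with the replicate block, 1 without the 2 least correlated arrays (chosen after seeing the data) and 0 to 2 with single arrays left out. Over all genes it was 12, and 80 with median centring, 57 with array weights, 0 with the replicate block, 43 without those 2 arrays, and 0 to 74 with single arrays left out. Itgam and Pecam1 stayed negative under every alternative run, Itgam between -1.09 and -0.89 and Pecam1 between -1.0 and -0.85. Adjusted p was 0.0200 to 0.125 for Itgam and 0.0216 to 0.156 for Pecam1. Itgax passed with median centring alone (-1.66). By sign, 20 members were lower with age on average in the main setting and with cyclic loess, and 22 with median centring. That centring moved the median age difference of all tested genes by -0.058.

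Members at unadjusted p under 0.05 for tumour in young mice were 2, and 1 with the stricter filter, cyclic loess, a variance trend, only the groups compared or the replicate block, and 0 to 3 with single arrays left out. For tumour in old mice they were 3, and 3 to 6 with single arrays left out. For age in tumour-bearing mice they were 7, and 4 with only the groups compared and 4 to 9 with single arrays left out. For the tumour effect in old minus young mice there was 1, and 2 with cyclic loess or array weights, 0 with the replicate block or without the 2 least correlated arrays, and 0 to 3 with single arrays left out. For this comparison 15 of 27 members were lower, and 12 of 27 with median centring. Same-numbered arrays correlated at -0.076 to 0.089 after removing group means, so the replicate numbers were not taken to pair mice. Of 68 printed differences recomputed (those of pathway genes were added after seeing the data), 7 changed sign, and 0 of these 7 passed in the main setting. With single arrays left out, the range was -0.45 to 0.034 for Itga2 with tumour in young mice, -0.49 to 0.020 for Itga2 with age in cancer-free mice and -0.046 to 0.0998 for Pecam1 with tumour on average. For age on average it was -0.023 to 0.18 for Cd44, -0.39 to 0.068 for F11r, -0.087 to 0.071 for Itgad and -0.11 to 0.098 for Selplg. For age on average Cd44 was also at -0.0051 with median centring, Itgad at 0.016 with array weights and 0.046 with the replicate block, and Selplg at 0.040 with cyclic loess, 0.0025 with array weights and 0.035 without the 2 least correlated arrays.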

Other observations

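Membrane partners of integrins and other adhesion molecules were counted from fixed lists. Of 7 tested partners 0 passed in limma, and 0 were higher and 3 lower with age on average at unadjusted p under 0.05, against 4.44% and 8.97% of all tested genes. Cd47, the "do not eat me" signal that binds integrins in its own membrane, was at -0.35 ± 0.12 and Plaur, the urokinase receptor, at -0.78 ± 0.29 (adjusted p = 0.238 and adjusted p = 0.266 in limma). The tetraspanin Cd81 had a tumour difference of 0.72 ± 0.17 in old mice (adjusted p = 0.223 in limma). Its arrays did not overlap there, as for 3.11% of all tested genes in the higher direction. The tetraspanin Cd9 had a tumour difference of -1.01 ± 0.39 in young mice (adjusted p = 0.886 in limma). Of 10 tested other adhesion molecules 0 passed, and Spn, the mucin CD43 of leukocytes, was at -0.58 ± 0.17 with age on average (adjusted p = 0.171 in limma).

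Itgae, the chain of CD103, varied most among young tumor-bearing mice, at 4.12, 5.76 and 3.66. The gene after Itgad on chromosome 7 is Cox6a2, one of the plasmacytoid dendritic cell markers, with group means of 9.48, 9.71, 7.74 and 8.30 in young cancer-free, young tumor-bearing, old cancer-free and old tumor-bearing mice.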
